A study of Rattus norvegicus with 10 samples.

Results

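The genes of cholesterol and fatty acid synthesis were followed through 5 rat mammary tumours, each measured before and after treatment with hydroxytyrosol, a phenol found in olives. The set was a list of 39 genes, here divided into a sterol arm of 19 genes from acetyl-CoA to cholesterol, a fatty acid arm of 15 genes from citrate export to triglyceride, and 5 regulators. A gene was taken from a probe set, the group of short probes that reports a transcript on the array, when the platform annotation gave that probe set exactly 1 gene symbol. In this way 38 of the 39 genes were found, on 63 probe sets, of 14217 genes in the whole table. Hmgcs1, which makes hydroxymethylglutaryl-CoA, was not analysed here. All 38 genes had at least 1 probe set above the limit for dim signals, and the brightest of these represented the gene.

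The tumours were raised in female Sprague-Dawley rats with DMBA, a mammary carcinogen given once by mouth at 100 mg/kg, and 5 of Bloom-Richardson grade II were profiled. The basal sample of each tumour was cut with a Trucut needle from rats of 12 weeks, with the tumour at 2 cm3 and no treatment given. The final sample was the same tumour at 19 weeks of age, at sacrifice in week 7, after 6 weeks of hydroxytyrosol gavage, 0.5 mg/kg a day and 5 days in each week. The tumours are called 66D2, 67D3, 45D3, 49I1 and 51I1, as in the labels. Later tumours without hydroxytyrosol were not analysed here, so treatment, age and tumour growth cannot be told apart. The sample labels call the final piece the total tumour and the design text calls it a Trucut piece, so a change of sampling may lie in the same contrast.

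Cells build cholesterol and fatty acids from the same acetyl-CoA. The sterol arm condenses it to mevalonate, makes isoprene units, joins them into squalene, closes the rings to lanosterol and trims that to cholesterol. The fatty acid arm exports citrate from mitochondria, splits it to acetyl-CoA, builds palmitate, elongates and desaturates it, and joins the products to glycerol. Both arms are switched on by the sterol regulatory element binding proteins, encoded by Srebf1, which favours fatty acid genes, and Srebf2, which favours sterol genes. These factors wait in the endoplasmic reticulum bound to the escort Scap. When sterols are plentiful, Insig1 and Insig2 hold Scap there, and when sterols are scarce Scap carries the factors to the Golgi for release by proteases. Insig1 is itself a target of the factors, so its transcript is often read as a gauge of their activity. In the mammary gland fatty acid synthesis serves milk fat, and Thrsp is a lipogenic protein of that programme.

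The sequence that this control reads lies just before the start site. The 250 bases upstream of 4 genes are printed 5′ to 3′ on the strand of the gene, from the RefSeq windows on the rat build GRCr8. They show a regulator, a fatty acid desaturase and a pair of sterol enzymes, 3 of which are among the members with the smallest p-values below. The other, Fdps, carries TCACACGAG, found in no other of the 31 members that had a RefSeq window. Capitals mark letters of a motif on either strand: CCAAT, the box of the factor NF-Y (read as ATTGG on the other strand), CACNCCAC, the core of the classical sterol regulatory element, and TCACACGAG, the form of the farnesyl diphosphate synthase promoter.
Insig1: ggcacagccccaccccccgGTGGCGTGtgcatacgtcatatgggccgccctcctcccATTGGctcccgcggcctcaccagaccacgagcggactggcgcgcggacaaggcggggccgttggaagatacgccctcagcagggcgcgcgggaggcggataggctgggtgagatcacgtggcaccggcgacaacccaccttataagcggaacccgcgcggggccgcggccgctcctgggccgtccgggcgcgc
Fads1: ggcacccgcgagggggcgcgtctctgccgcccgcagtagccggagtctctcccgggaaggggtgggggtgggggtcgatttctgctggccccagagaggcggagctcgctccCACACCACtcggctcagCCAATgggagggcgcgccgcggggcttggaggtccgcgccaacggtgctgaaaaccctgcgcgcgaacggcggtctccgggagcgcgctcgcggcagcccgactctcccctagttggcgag
Fdps: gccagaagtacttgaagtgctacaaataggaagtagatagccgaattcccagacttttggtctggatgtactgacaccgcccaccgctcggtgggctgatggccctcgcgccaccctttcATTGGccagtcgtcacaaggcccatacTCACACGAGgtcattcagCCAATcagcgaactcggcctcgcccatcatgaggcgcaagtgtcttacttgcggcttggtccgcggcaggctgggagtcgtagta
Idi1: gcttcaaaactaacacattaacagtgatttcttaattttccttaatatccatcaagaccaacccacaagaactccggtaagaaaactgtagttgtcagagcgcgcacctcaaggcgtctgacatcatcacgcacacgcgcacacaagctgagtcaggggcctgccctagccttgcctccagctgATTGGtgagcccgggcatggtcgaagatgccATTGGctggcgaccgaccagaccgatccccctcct
The Insig1 stretch is chr4:8057770-8058019 on the minus strand, the Fads1 stretch chr1:216252442-216252691 on the plus strand, the Fdps stretch chr2:176804817-176805066 on the minus strand and the Idi1 stretch chr17:66547525-66547774 on the minus strand. Insig1 and Fads1 each hold a CCAAT box and a CACNCCAC core here. Fdps holds TCACACGAG between CCAAT boxes of opposite strand, and Idi1 holds a pair of CCAAT boxes, both printed as ATTGG.

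Motifs were counted on both strands over windows from 250 bases before to 50 bases after the start site, which RefSeq gave for 31 of the 39 members. CCAAT was in 24 of the 31 (77.4%), against 37.5% of all 33469 windows and 38% of those of protein-coding genes. By arm it was in 12 of 15 windows of the sterol arm, in 8 of 11 of the fatty acid arm and in 4 of 5 of the regulators. CACNCCAC was in 6 of the 31 windows (19.4%) against 5.8% of all windows. The longer form TCACNCCAC was in 0 of the 31 against 1.12% of all, and TCACACGAG in 1, that of Fdps, against 0.123%. No motif overlapped a different motif in the members' windows. A match is a description of the letters, and nothing about binding in these tumours was measured.

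Signals are RMA values, read here as log2 from their range, and a difference is final minus basal on that scale. The paired limma test over 18625 probe sets, adjusted by Benjamini-Hochberg, called 0 of them at an adjusted p of 0.05 (0% of all), and 1494 had an unadjusted p under 0.05. None of the 38 genes passed, so each difference below is a measured value and none is a change past the test. The labels give 5 tumours and do not say whether they came from separate rats, so the p-values measure the spread between these tumours. The luminal epithelial markers were all detected (10 of 10 tested), among them Krt8 at 12.24 ± 0.32 in basal and 12.30 ± 0.30 in final arrays (SD, n = 5). The myoepithelial markers were detected too (6 of 6 tested), with Krt5 at 12.08 ± 0.56 in basal and 12.05 ± 0.43 in final arrays. Which cells of the tumour carry these transcripts was not tested. The hexokinase control, the signal of its 3′ minus that of its 5′ probe set, which grows as RNA degrades, was between 0.97 and 2.36 in basal and between 0.89 and 1.10 in final arrays. The biopsies of 45D3 (2.36) and 67D3 (2.03) had the highest values. In these bulk samples fewer cells of a type and less RNA per cell cannot be told apart.

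On the brightest probe set of each gene, the sterol arm was lower on average in every gene measured, while the fatty acid arm was divided. In the sterol arm 18 of 18 genes had a lower mean in final samples, by 0.01 to 0.36 in size, with a median difference of -0.13. In the fatty acid arm 7 genes were lower and 8 higher, from -0.37 to 0.62, with a median of 0.03. The regulators had 2 lower and 3 higher, with a median of 0.07. Over all 10839 genes tested 52.1% had a lower mean and the median difference was -0.01. Of 20 genes with several tested probe sets, 4 had means of opposite sign, by at most 0.25 apart. In the sterol arm these were Nsdhl (-0.12 and 0.07) and Sc5d (-0.07, -0.13 and 0.01), and elsewhere Elovl5 and Insig2. The genes of an arm share the same 10 arrays, so 18 genes on 1 side are not 18 observations. The SD of the arm median between tumours was 0.29 for the sterol arm, which is larger than its median difference.

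**Figure D1:**
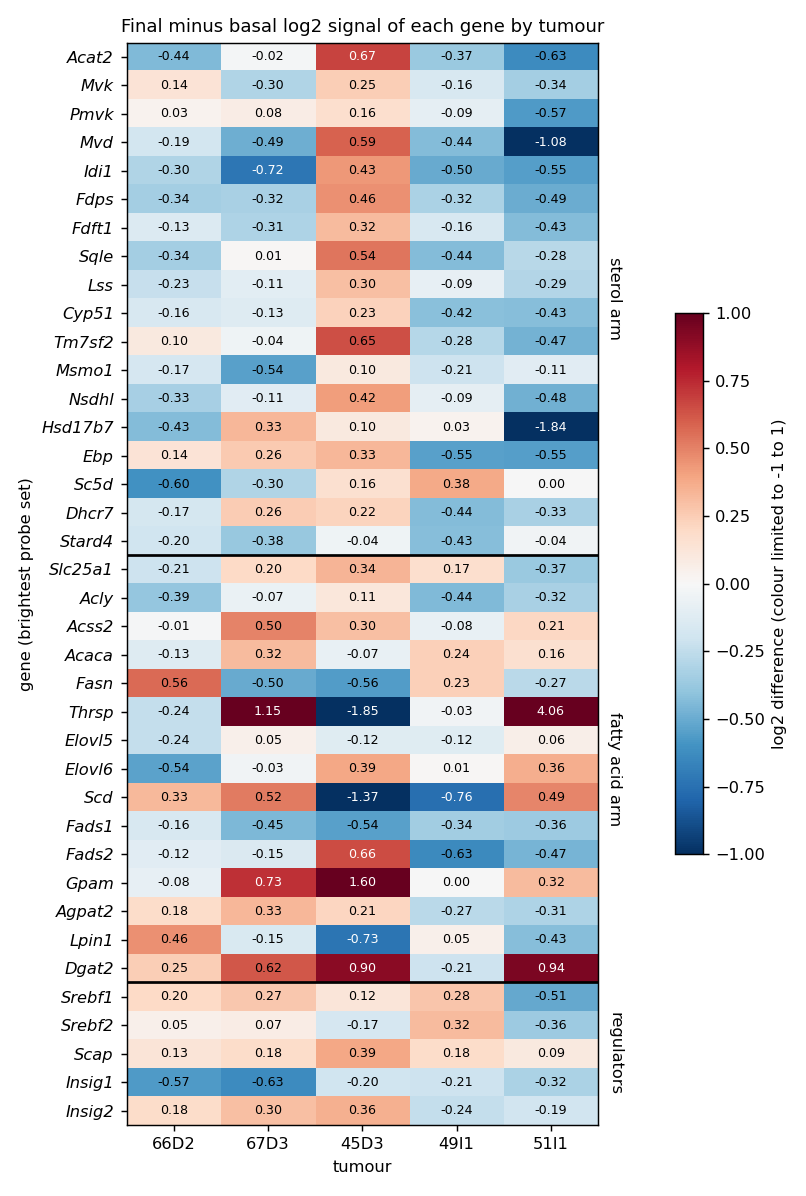
Final minus basal log2 signal for each of the 38 genes (rows, brightest probe set) in each of the 5 tumours (columns), with sterol genes above, fatty acid genes in the middle and regulators at the bottom. Blue cells are lower and red cells higher in the final sample, with colour limited to -1 to 1 and the value printed in each cell. The 45D3 column is red for 17 of 18 sterol genes and the 51I1 column is blue or at 0 for all 18.

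At an unadjusted p under 0.05, Fads1 and Insig1 were lower (2 of the 38, where 4.36% of all genes tested were) and Dgat2 was higher (1 of the 38, where 2.78% were). Lower in all 5 tumours were Insig1, Fads1 and Stard4, 3 of the 38 against 5.27% of all genes. Higher in all 5 was Scap, 1 of the 38 against 3.52% of all genes. These directions are those of the brightest probe set: Insig1 and Fads1 had no other, while a second tested probe set of Stard4 and of Scap was higher in 45D3 and lower in the other 4 tumours. These shares are near those of all genes and are no result about the set. The basal and final signals overlapped in every member, and in all but 130 of the 10839 genes tested, so this too is no result about the set. In 5 of the 38 genes (Stard4, Fads1, Dgat2, Scap and Insig1) the mean difference was larger than its SD between tumours, and in 1426 of all 10839 genes it was.

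The entry of the sterol arm had 1 measured gene. Acat2, the cytosolic thiolase that joins acetyl-CoA units, differed by -0.16 and was lower in 4 of 5 tumours. The next 5 genes carry mevalonate to farnesyl diphosphate, and all 5 had a lower mean, with a median of -0.20. Among them Mvk and Pmvk, the kinases of mevalonate, both differed by -0.08, and Mvd, the decarboxylase that follows, by -0.32.

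Idi1, which isomerises the isoprene unit so that chains can be joined, had the smallest p of the sterol enzymes. Its basal signal was 10.78 for 66D2, 8.81 for 67D3, 9.38 for 45D3, 10.40 for 49I1 and 10.12 for 51I1. Its final signal was 10.48, 8.08, 9.81, 9.89 and 9.58 in the same order. Its final signal was the lower one in 4 tumours and the higher one in 45D3, with 67D3 the lowest at both moments and the groups overlapping. The difference was -0.33 ± 0.18 (SE, n = 5), with limma's adjusted p = 0.664. Leaving out 45D3 gave -0.52, and fitting a covariate gave -0.52 for the hexokinase value, -0.05 for adipocyte markers and -0.04 for skeletal muscle markers.

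Fdps, which joins isoprene units to farnesyl diphosphate, was lower in the same 4 tumours. Its difference was between -0.49 and -0.32 in those 4 tumours and 0.46 in 45D3. The mean difference was -0.20. It was between -0.37 (without 45D3) and -0.13 (without 51I1) with 1 tumour left out, and the adipocyte, skeletal muscle and hexokinase covariates gave 0.12, -0.04 and -0.44.

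Squalene is made and closed into a ring by 3 enzymes, which differed by a median of -0.10. Fdft1, squalene synthase, differed by -0.14 and was lower in 4 tumours, as was Lss, lanosterol synthase, at -0.08. Sqle, the epoxidase that adds oxygen to squalene and a slow step of the pathway, had basal signals of 9.44 for 66D2, 8.35 for 67D3, 8.43 for 45D3, 9.54 for 49I1 and 9.30 for 51I1. Its final signals were 9.10, 8.37, 8.97, 9.10 and 9.02 in that order. It was lower in 3 tumours, about level in 67D3 and higher in 45D3. The final signals of all tumours but 67D3 lay within 8.97 to 9.10, a narrower band than their biopsies. The difference was -0.10 ± 0.16 (SE, n = 5), with limma's adjusted p = 0.881. It was between -0.26 (without 45D3) and -0.02 (without 49I1) with 1 tumour left out, 0.02 with the skeletal muscle covariate, 0.17 with the adipocyte covariate and -0.41 with the hexokinase covariate.

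The 8 enzymes from lanosterol to cholesterol all had a lower mean, with a median of -0.11 and a range from -0.36 to -0.01. Cyp51, the lanosterol demethylase, differed by -0.18, and Msmo1, which oxidises the next methyl groups, by -0.19. Both were lower in 4 of 5 tumours, as was the dehydrogenase Nsdhl (-0.12). The reductase Tm7sf2 (-0.01), the isomerase Ebp (-0.07), the desaturase Sc5d (-0.07) and the last reductase of the pathway, Dhcr7 (-0.09), were lower in 2 or 3 tumours. Hsd17b7, a keto-reductase of this stretch, had the most negative mean of the arm, -0.36, and that value rests on 51I1, where it differed by -1.84. Without 51I1 it differed by 0.01, and the adipocyte and skeletal muscle covariates gave 0.34 and -0.87.

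Stard4, a soluble carrier that moves cholesterol between membranes, was the sterol gene lower in all 5 tumours on its brightest probe set. Its basal signals were 7.78 for 66D2, 6.92 for 67D3, 7.08 for 45D3, 7.87 for 49I1 and 7.62 for 51I1, and its final signals 7.58, 6.54, 7.04, 7.45 and 7.58. The step was 0.04 in size in 45D3 and 51I1 and 0.20 to 0.43 in the other 3. The difference was -0.22 ± 0.10 (SE, n = 5), with limma's adjusted p = 0.651. With the skeletal muscle covariate it was -0.07. A second, dimmer probe set differed by -0.27 and was higher by 0.84 in 45D3 and lower in the other 4.

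**Figure D2:**
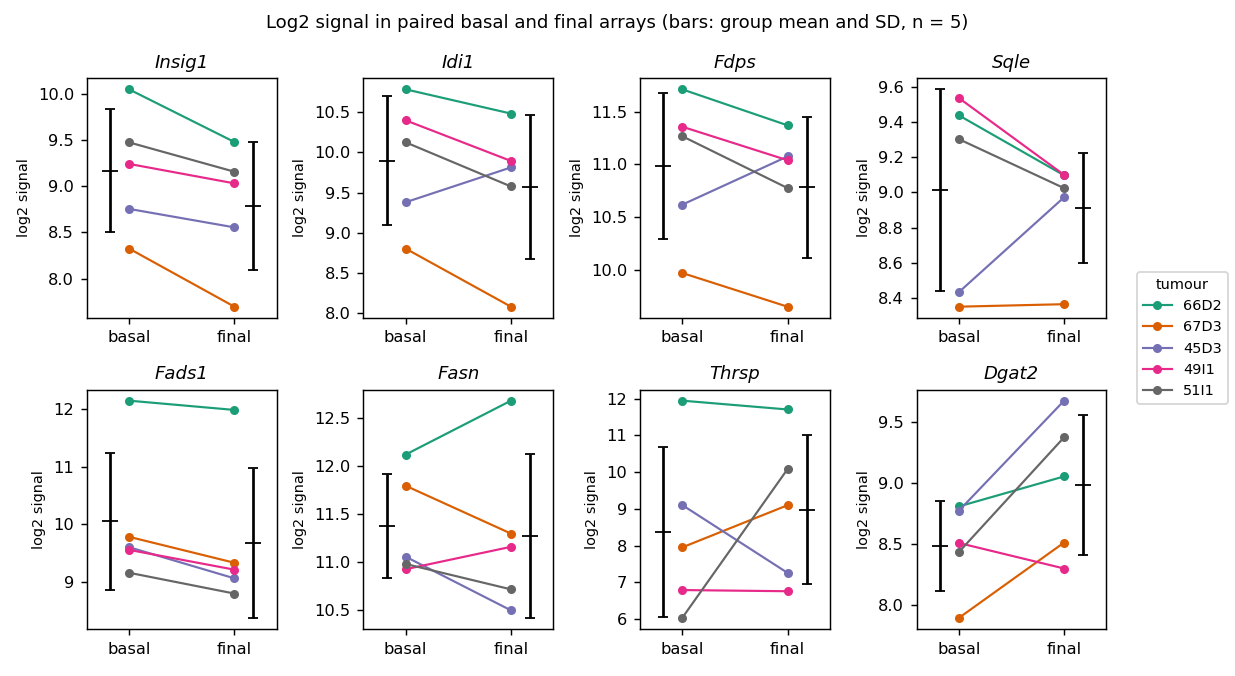
Log2 signal (vertical axis, a scale of its own for each gene) of 8 genes in basal and final arrays, with 1 line for each tumour and bars for the group mean and SD of 5 arrays. Insig1 and Fads1 slope down in all 5 tumours, Idi1 and Fdps in all but 45D3, and Thrsp crosses over most widely, from 6.03 to 10.08 in 51I1.

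Among the regulators, Insig1 had the lowest mean difference of all 38 genes, and the probe sets of Scap differed in direction. The basal signal of Insig1, the sterol-dependent brake, was 10.05 for 66D2, 8.33 for 67D3, 8.75 for 45D3, 9.24 for 49I1 and 9.47 for 51I1. Its final signal was 9.48, 7.70, 8.55, 9.03 and 9.16 in that order. It was lower in 5 of 5 tumours, by 0.20 in 45D3 to 0.63 in 67D3 in size, and the groups overlapped. The difference was -0.39 ± 0.11 (SE, n = 5), a fold of 0.766, with limma's adjusted p = 0.556. Insig1 was also lower in 45D3, in which 17 of 18 sterol genes were higher. Its difference was -0.28 with the adipocyte covariate and -0.20 with the skeletal muscle covariate.

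Scap, the escort, had basal signals of 9.09 for 66D2, 9.19 for 67D3, 9.31 for 45D3, 9.55 for 49I1 and 9.35 for 51I1. Its final signals were 9.22, 9.37, 9.70, 9.74 and 9.44. On this probe set, the brightest, each tumour was higher at the end, by 0.09 to 0.39, and the groups overlapped. A second, dimmer Scap probe set was lower in 4 tumours, with differences of -0.06 in 66D2, -0.26 in 67D3, -0.09 in 49I1 and -0.19 in 51I1, and of 1.32 in 45D3, so the direction by tumour differs between the probe sets. The difference was 0.20 ± 0.09 (SE, n = 5), with limma's adjusted p = 0.642 on the brightest probe set, and 0.15 on the other. The hexokinase covariate gave 0.12 and the adipocyte covariate 0.30 for the brightest.

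The transcripts of the factors themselves had mean differences near 0 on the brightest probe sets. Srebf1 had basal signals of 10.87 for 66D2, 9.87 for 67D3, 10.28 for 45D3, 10.33 for 49I1 and 10.51 for 51I1, and final signals of 11.07, 10.15, 10.40, 10.61 and 9.9998. It was higher by 0.12 to 0.28 in 4 tumours and lower by 0.51 in 51I1. The difference was 0.07 ± 0.14 (SE, n = 5), with limma's adjusted p = 0.909, and it was 0.22 without 51I1, 0.28 with the adipocyte covariate and -0.16 with the skeletal muscle covariate. A second, dimmer probe set of Srebf1 differed by 0.19, being higher in 4 tumours and at -0.33 in 51I1.

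Srebf2 had basal signals of 8.71, 8.72, 8.91, 8.96 and 8.57 and final signals of 8.76, 8.79, 8.74, 9.28 and 8.21, both in the order 66D2, 67D3, 45D3, 49I1 and 51I1. It was lower in 45D3 and 51I1 and higher in the other 3. The difference was -0.02 ± 0.12 (SE, n = 5), with limma's adjusted p = 0.974. Insig2, the second brake, differed by 0.08, being higher in 3 tumours and lower in 2.

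The fatty acid arm ran from -0.37 (Fads1) to 0.62 (Thrsp). Its 6 genes of supply and synthesis had a median of 0.06, with 2 lower and 4 higher. Its 5 genes of elongation and desaturation had a median of -0.14, with 4 lower and 1 higher. Its 4 genes of glycerolipid assembly had a median of 0.27, with 1 lower and 3 higher.

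Acly, which splits citrate to acetyl-CoA for both arms, was the supply gene with the smallest p. Its basal signals were 11.85 for 66D2, 10.87 for 67D3, 10.97 for 45D3, 11.38 for 49I1 and 10.98 for 51I1, and its final signals 11.47, 10.80, 11.08, 10.94 and 10.66. For Acly, 45D3 was higher at the end and the other 4 tumours lower. This pattern was in 9 of the 18 sterol genes, 2 of the 15 fatty acid genes and 1426 of all 10839 genes tested. The difference was -0.22 ± 0.12 (SE, n = 5), with limma's adjusted p = 0.659, and the hexokinase and adipocyte covariates gave -0.41 and -0.07. The other suppliers were nearer 0 or higher: Slc25a1, the citrate exporter, differed by 0.03, Acss2, which makes acetyl-CoA from acetate, by 0.18 and Acaca, the carboxylase that commits it to fatty acids, by 0.10.

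Fasn, which builds palmitate, showed no common direction. Its basal signals were 12.12 for 66D2, 11.80 for 67D3, 11.05 for 45D3, 10.92 for 49I1 and 10.98 for 51I1, and its final signals 12.69, 11.30, 10.49, 11.16 and 10.71. It was higher in 66D2 and 49I1 and lower in the other 3. The difference was -0.11 ± 0.19 (SE, n = 5), with limma's adjusted p = 0.899. Leaving out 1 tumour gave -0.27 (66D2) to 0.01 (45D3), the hexokinase covariate 0.25 and the adipocyte covariate -0.32.

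Thrsp, the lipogenic protein of mammary gland and fat, varied most between tumours. Its basal signal was 11.95 for 66D2, 7.95 for 67D3, 9.11 for 45D3, 6.79 for 49I1 and 6.03 for 51I1. Its final signal was 11.71, 9.10, 7.26, 6.76 and 10.08. It was higher in 67D3 and 51I1, lower in 45D3 and within 0.24 in size of the biopsy in the other 2. The mean difference of 0.62 ± 0.77 (SE, n = 5), with limma's adjusted p = 0.849, was the highest of the set, and without 51I1 it was -0.24. Thrsp was described in full because of this spread, a choice made after its values were seen. Adipocyte markers were likewise higher in 67D3 (median difference 1.48) and 51I1 (3.69) and lower in 45D3 (-1.10), and with their median as a covariate the Thrsp difference was -1.16. Its other 2 probe sets differed by 0.51 and 0.57, each with 51I1 highest and 45D3 lowest.

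Fads1, a desaturase of polyunsaturated fatty acids, had the smallest p of the 38 genes. Its basal signal was 12.15 for 66D2, 9.78 for 67D3, 9.60 for 45D3, 9.56 for 49I1 and 9.16 for 51I1. Its final signal was 11.99, 9.33, 9.06, 9.21 and 8.80. It was lower in 5 of 5 tumours, 45D3 included, and 66D2 stood far above the others at both moments. The difference was -0.37 ± 0.10 (SE, n = 5), a fold of 0.772, with limma's adjusted p = 0.550, and it stayed between -0.43 and -0.33 whichever tumour was left out. Its neighbour in function Fads2 was lower in 4 tumours, with a difference of -0.14, and was higher in 45D3 by 0.66.

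Scd, which makes monounsaturated fatty acids, was divided by tumour. Its basal signals were 9.85 for 66D2, 9.52 for 67D3, 9.07 for 45D3, 8.45 for 49I1 and 9.91 for 51I1, and its final signals 10.17, 10.04, 7.70, 7.70 and 10.40. The final signals of 45D3 and 49I1 lay well below the other 3. The difference was -0.16 ± 0.31 (SE, n = 5), with limma's adjusted p = 0.910, and it was between -0.33 (without 67D3) and 0.14 (without 45D3) with 1 tumour left out. The adipocyte covariate gave -0.94, the skeletal muscle covariate -0.64 and the hexokinase covariate 0.15. On the brightest probe sets the elongases differed little on average, Elovl5 by -0.07 and Elovl6 by 0.04, the latter with 67D3 below the others at both moments. A second, dimmer probe set of Elovl5 differed by 0.18. In 45D3 it differed by 0.98, where the brightest differed by -0.12.

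Glycerolipid assembly held the genes with the largest positive means after Thrsp. Dgat2, which adds the last acyl chain of triglyceride, had basal signals of 8.81 for 66D2, 7.90 for 67D3, 8.77 for 45D3, 8.51 for 49I1 and 8.44 for 51I1. Its final signals were 9.06, 8.52, 9.68, 8.30 and 9.38. It was higher in 4 tumours and lower in 49I1. The difference was 0.50 ± 0.19 (SE, n = 5), a fold of 1.41, with limma's adjusted p = 0.593. The hexokinase covariate gave 0.26 and the skeletal muscle covariate 0.72.

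Gpam, the mitochondrial acyltransferase that starts glycerolipid synthesis, was a dim probe set. Its basal signals were 6.48, 5.48, 6.02, 6.75 and 6.30 and its final signals 6.39, 6.21, 7.62, 6.75 and 6.62, in the order 66D2, 67D3, 45D3, 49I1 and 51I1, all below the 7.70 of the faintest spike control, BioB. It was higher in 3 tumours, most in 45D3, and lower or level in 2. A second probe set, dim as well, differed by 0.41 and was higher in all 5 tumours, by 0.03 to 1.29. The difference was 0.51 ± 0.25 (SE, n = 5), with limma's adjusted p = 0.656. Leaving out 45D3 gave 0.24, the hexokinase covariate -0.03 and the adipocyte covariate 0.99. Agpat2, the next acyltransferase, differed by 0.03 and Lpin1, the phosphatase before Dgat2, by -0.16.

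The contrast between the arms differed from tumour to tumour. The sterol arm median was -0.19 for 66D2, -0.12 for 67D3, 0.31 for 45D3, -0.30 for 49I1 and -0.45 for 51I1. The fatty acid arm median was -0.12, 0.20, 0.11, -0.08 and 0.06 in the same order. The sterol arm was thus below the fatty acid arm in 4 tumours and above it in 45D3, with sterol minus fatty acid values of -0.07, -0.32, 0.20, -0.22 and -0.51. For 45D3 the deviations of biopsy and final array from their group means had a correlation of -0.16. Its final array did not match its own biopsy best. The part of this in the 45D3 values was not tested. Taken from each gene's mean over the 5 tumours, the contrast of the arm medians was -0.16. The SD of the 5 values by tumour, a different statistic, was 0.27. The contrast from gene means was 0.01 without 51I1 and -0.24 without 45D3. The values by tumour for 66D2, 67D3 and 49I1 were nevertheless below 0.

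By count, the lower sterol genes numbered 14 of 18 for 66D2, 13 for 67D3, 1 for 45D3, 16 for 49I1 and 18 for 51I1. The lower fatty acid genes numbered 10, 6, 7, 10 and 7 of 15 in the same order. Over all genes tested the share lower ran from 45.8% in 45D3 to 59.2% in 51I1, so these tumours were also the ends of the general range. Lower in all 4 tumours other than 45D3 were 10 of the 18 sterol genes, 3 of the 15 fatty acid genes and 1 of the 5 regulators, 14 of the 38 in all, where 18.4% of all genes were. This grouping of tumours was made after the values were seen and has no test.

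**Figure D3:**
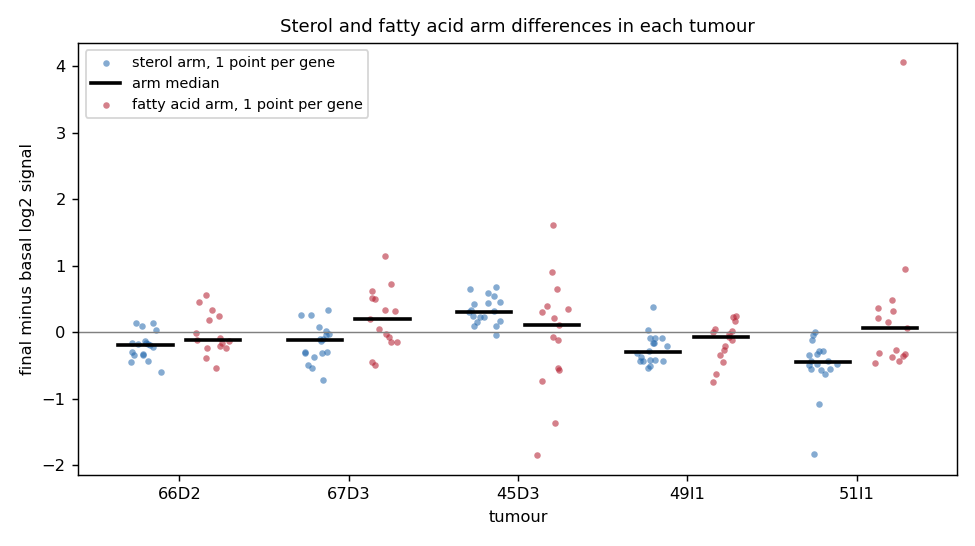
Final minus basal log2 signal (vertical axis) of each sterol gene (blue points, 18 a tumour) and each fatty acid gene (red points, 15 a tumour) in the 5 tumours, with a black bar at each arm median. The sterol medians run from -0.45 in 51I1 to 0.31 in 45D3 and the fatty acid medians from -0.12 to 0.20, with genes of both arms on either side of 0 in most tumours.

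Other measures differed between the same tumours. The median difference of the 6 adipocyte markers tested, of 12 listed (Plin1, Lep, Cidec, Retn, Pck1 and Aqp7 not tested), was 0.61 for 66D2, 1.48 for 67D3, -1.10 for 45D3, 0.13 for 49I1 and 3.69 for 51I1. The tumour with the highest sterol median thus had the lowest adipocyte value, and the tumour with the lowest sterol median the highest. Between 67D3, 66D2 and 49I1 the order was the other way. Their adipocyte values of 1.48, 0.61 and 0.13 went with sterol medians of -0.12, -0.19 and -0.30. Adipoq, which defines fat cells, had a basal mean of 4.53, under the dim limit of 5.14, and a final mean of 6.00. With the adipocyte median as a covariate the sterol median was 0.13 and 4 of the 18 sterol genes were lower. Tumours 51I1 and 45D3 are the extremes of both measures, so fat content and tumour cannot be told apart here.

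Proliferation genes, 8 of 8 tested, differed in the median by -0.19, -1.41, 0.83, -0.89 and -0.29 in the order 66D2, 67D3, 45D3, 49I1 and 51I1, so that they too were higher in 45D3 alone. Luminal markers differed by 0.12, 0.44, 0.20, -0.02 and -0.38, with 51I1 lowest. Skeletal muscle markers, 8 of 9 tested, differed by 4.46, 6.70, 0.20, 2.88 and 0.20, and with their median as a covariate the sterol median was -0.04, with 14 of 18 genes lower. The hexokinase value of the biopsy was 0.97, 2.03, 2.36, 1.19 and 1.29, and with its difference as a covariate the sterol median was -0.31, with 18 of 18 lower. Without 45D3 and 67D3 together, the tumours with the highest hexokinase values in the biopsy, the sterol median was -0.31. Milk secretion genes, 6 of 7 tested, differed by -0.20, -0.56, -1.47, -0.22 and 2.14, lowest in 45D3 and highest in 51I1, as were Thrsp and the adipocyte markers. Macrophage markers, 6 of 7 tested, differed by 1.01, -0.83, -0.79, -0.40 and 1.03, highest in 51I1 and 66D2. The part of proliferation, luminal, milk and macrophage genes in these results was not tested.

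**Figure D4:**
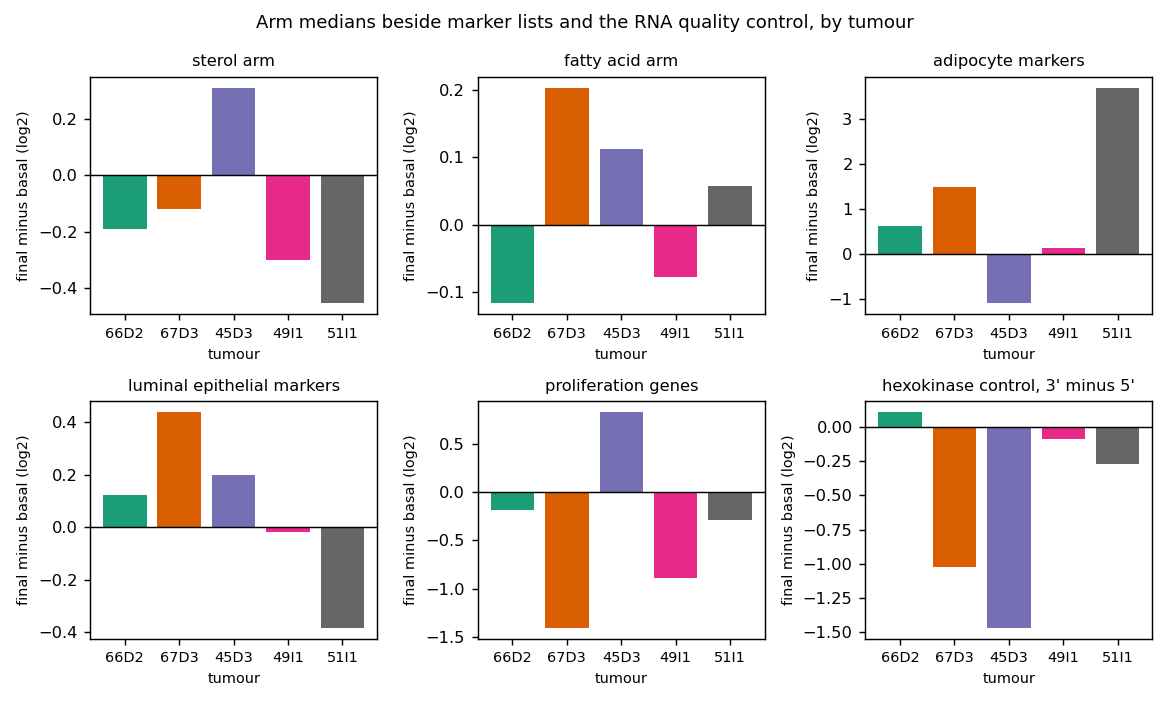
Final minus basal difference (log2, vertical axis, a scale of its own for each panel) by tumour for the medians of the sterol arm, the fatty acid arm, adipocyte markers, luminal epithelial markers and proliferation genes, and for the hexokinase 3′ minus 5′ value. Tumour 45D3 is the 1 tumour above 0 for the sterol arm and for proliferation genes and the 1 tumour below 0 for adipocyte markers, and its hexokinase difference was -1.47.

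The tumours also differed in level before any treatment. In the biopsies the median SD between tumours was 0.46 for sterol genes, 0.49 for fatty acid genes and 0.18 for regulators, against 0.25 for all genes tested. Averaged over the sterol arm, the basal log2 signal ran from 7.99 in 67D3 to 9.001 in 66D2, and the final signal from 7.83 in 67D3 to 8.80 in 66D2. The biopsies of 67D3 (7.99) and 45D3 (8.16) were the lowest and had the highest hexokinase values, 2.03 and 2.36. The other biopsies were at 8.82 to 9.001, with hexokinase values of 0.97 to 1.29. In the final arrays, with hexokinase values between 0.89 and 1.10, 67D3 was still the lowest and 45D3 was at 8.49. How far RNA degradation accounts for the basal levels was not tested. Tumour 67D3 was the lowest of the 5 at both moments for Idi1, Fdps, Fdft1, Sqle, Lss, Cyp51 and Msmo1. The same was so for Acat2, Mvk, Pmvk, Tm7sf2, Dhcr7 and Stard4 on the brightest probe set. Averaged over the fatty acid arm, 66D2 was the highest at both moments, at 9.82 and 9.79. Tumour 66D2 stood above every other tumour at both moments in Acly, Acss2, Acaca, Fasn, Elovl5, Fads1, Fads2 and Thrsp.

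Genes of the same pathways outside the set were read from a list of 17 sterol genes and 29 fatty acid genes, of which 12 and 20 could be tested. On the sterol side 2 of 12 had a lower and 10 a higher mean, with a median of 0.08. Mbtps1, a protease that releases the sterol regulatory factors, was higher in 5 of 5 tumours, by 0.10 on average (limma, adjusted p = 0.790). Abca1, which exports cholesterol from cells, was the 1 gene of the 12 at an unadjusted p under 0.05, with a mean of 9.11 ± 1.02 in basal and 9.88 ± 0.58 in final arrays (SD, n = 5), and is named here after its values were seen. It was higher by 0.72 to 1.29 in 4 tumours and lower by 0.06 in 45D3, with a mean difference of 0.77 ± 0.19 (SE, n = 5) and limma's adjusted p = 0.550. The sterol arm median had the opposite sign to Abca1 in each of the 5 tumours, an observation made on values already seen and not tested. Higher in all 4 tumours other than 45D3 were 4 of the 12 genes and 1285 of all 10839 genes tested. Abcg1, of the same list, differed by -0.19 in 67D3 and so had the sign of the sterol median there.

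On the fatty acid side 9 of 20 had a lower and 11 a higher mean, with a median of 0.02. Plin2, the coat protein of lipid droplets, had a mean of 11.41 ± 0.87 in basal and 10.97 ± 0.94 in final arrays (SD, n = 5). It was lower in 5 of 5 tumours, by 0.08 in 51I1 to 0.93 in 45D3 in size. The difference was -0.44 ± 0.14 (SE, n = 5), with limma's adjusted p = 0.579. Among all genes tested 5.27% were lower in all 5 tumours.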

How the data were processed

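RNA of 10 tumour samples, 5 basal and 5 final, was measured on Affymetrix rat arrays. Per the design text, the authors summarised intensities with the Robust Multichip Average method (RMA), which the submitters' processing notes also name. The deposited values were read as log2 from their range, because no label states their scale. RMA gives arrays a common distribution, so a change in total RNA would not show. Per the design text, controls and signals near background were removed, yet the table used here still held 57 controls among 31099 probe sets.

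Of 31042 other probe sets, the platform annotation gave 20826 a single symbol, 436 several and 9780 none. The dimmest 40% by mean over the arrays (below 5.14) were left out, which kept 18625. The number of arrays limits the precision. Differences were fitted with limma 3.58.1 (R 4.3.3; statmod 1.5.0), with the tumour identifier of the labels, which pairs basal and final samples, as a block. In the values, own-tumour correlations of the deviations from the group means were 0.72 (66D2), 0.47 (67D3), -0.16 (45D3), 0.29 (49I1) and 0.17 (51I1). Of the final arrays 4 of 5 matched their own biopsy best, and that of 45D3 did not. The fit had 4 residual and 2.64 prior degrees of freedom and was tested on simulated data.

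The members and lists were chosen with earlier results of these data known. Values by array are given for the 8 members with the smallest p, for Fasn, Scd, Sqle, Srebf1 and Srebf2 in any case, and for members whose probe sets disagreed by over 0.5 (none). Other pathway genes were named if they moved the same way in all 5 tumours. Abca1, Abcg1 and Acsl4 did not, and were named after their values were seen. Alternatives covered the block, the dim filter, scaling, array weights, covariates, the choice of probe set, the methods' t-test and leaving out each tumour. Protein sequences were not used here.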

Additional observations from a re-analysis of the deposited data

Results flagged for a closer look

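Within each group of 5 arrays, and within the 5 differences of each gene, the gap of the extreme value to its neighbour was divided by the whole range, and ratios above 0.71 were marked. Of 114 groups 11 were marked, where chance marks about 1 in 20 of independent groups. These groups share the same arrays and are not independent, so their count cannot be set against that rate. Among sterol genes, Fdps had a difference of 0.46 in 45D3 against -0.49 to -0.32 in the others (ratio 0.817). In the final arrays 67D3 was far below the others for Fdft1 (7.90 against 8.81 to 8.98, ratio 0.845), Sqle (8.37 against 8.97 to 9.10, ratio 0.828), Msmo1 (8.16 against 9.05 to 9.33, ratio 0.762) and Nsdhl (7.98 against 8.38 to 8.54, ratio 0.712). Ebp was highest in final 66D2 (8.78 against 8.14 to 8.28, ratio 0.783).

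Among fatty acid genes, Elovl6 was lowest in basal 67D3 (7.07 against 8.54 to 8.73, ratio 0.887). Tumour 66D2 was far above the others for Fads1 in basal (12.15 against 9.16 to 9.78, ratio 0.791) and in final arrays (11.99 against 8.80 to 9.33, ratio 0.832), and for Fads2 in basal arrays (9.53 against 6.75 to 7.44, ratio 0.753). The difference of Srebf1 in 51I1 was -0.51 against 0.12 to 0.28 in the others (ratio 0.803).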

How the results depend on the processing

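No member passed the adjusted threshold in any fit run. Without the replicate block 0 probe sets passed, 1001 had an unadjusted p under 0.05, and the arm medians were the same. The methods' t-test gave 1394 at that unadjusted threshold and 0 after Benjamini-Hochberg adjustment. With the hexokinase covariate 2 probe sets passed, neither of a member. The count of probe sets moving the same way in all tumours (1622) was 2511 with no dim filter, 847 with probe sets under BioB left out, 2147 to 5244 with 1 tumour left out and 7767 without 45D3 and 67D3. Members lower in all tumours numbered 3 to 14 with 1 tumour left out. The 14 of 38 were without 45D3, where 18.4% of all genes tested were lower in the other 4. Without 45D3 and 67D3 there were 16, and members higher in all numbered 1 to 2 with 1 left out. The probe set counts above join both directions, so these other member counts have no matching share of all genes here. Fewer tumours make a common direction easier to meet.

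The sterol median kept its sign in every alternative except the adipocyte covariate (0.13, with Nsdhl at 0.22), and was -0.26 to -0.05 with 1 tumour left out, weakest without 51I1 (14 of 18 genes lower). The fatty acid median, 0.03, had no settled sign: it was -0.0239 with the dimmest 60% left out, -0.0345 with the hexokinase covariate, -0.0192 with the muscle covariate, -0.0239 without Thrsp, and -0.0605 to -0.00802 with 1 tumour left out. Sterol minus fatty acid was 0.0199 with the adipocyte covariate and -0.24 to 0.0123 with 1 tumour left out. The cause of these shifts was not tested. The alternatives without Thrsp and without 45D3 and 67D3 together, and the recount of members with a tumour left out, were chosen after seeing the data. With 7 members' mean signals below BioB (31 of 38 kept), small differences of dim genes are least certain.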
